A study of Mus musculus with 28 samples.

Results

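Liver makes most of the proteins of blood clotting and of complement, and 39 genes for these secreted factors were followed here out of 17792 in the deposited table. They were taken by symbol from a list of 21 genes of coagulation and 18 of complement, and all 39 were found. Of the 21, 14 encode procoagulant factors, 4 anticoagulants and 3 proteins of fibrinolysis. Of the 18, 10 encode proteins of the complement cascade, 4 belong to the lectin pathway that starts it and 4 regulate it. The values come from RNA sequencing of whole C57BL/6 mouse liver in 28 libraries. Mice with a macrophage-specific knockout of Pparg (KO) and wild-type mice (WT) were dosed by gavage with the plasticizer di(2-ethylhexyl) phthalate (DEHP, 625 mg per kg body weight) or with its vehicle, 0.5% carboxymethyl cellulose (CMC). The groups at 90 days were KO DEHP, KO CMC, WT DEHP and WT CMC with 4 libraries each, and the same 4 groups had 3 libraries each at 28 days. The labels describe males of 20 to 30 g and 12 mice per group, and give neither the age, nor the Cre driver of the knockout, nor which mouse gave which library, so the p-values reflect variation among libraries that may be technical. Levels are FPKM, fragments scaled to transcript length and to library size.

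Coagulation is a chain of serine proteases that is set off by tissue factor with factor VII or by contact activation through factor XII, and that ends when thrombin cuts fibrinogen into fibrin. Antithrombin, heparin cofactor II and protein C brake it, and plasmin dissolves the clot. In complement, the classical, lectin and alternative routes converge on the cleavage of C3 and C5, after which C6, C7, C8 and C9 assemble a pore in the target membrane. Hepatocytes secrete most of these proteins, and liver-enriched transcription factors such as HNF1 and HNF4A drive many of their genes. DEHP is hydrolysed to a monoester that activates the nuclear receptor PPARalpha in rodent liver.

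Windows of 250 bases before to 50 bases after the annotated start were available for 31 of the 39 genes (RefSeq, GRCm38.p6). The motifs searched on both strands were DR1 (AGGTCANAGGTCA, up to 2 mismatches), bound by PPARalpha with RXR and by HNF4A, the HNF1 motif (GTTAATNATTAAC, up to 3 mismatches) and the STAT motif (TTCNNNGAA, no mismatch). Matches were found for 3 of 31 genes (9.68%) for DR1, for 13 (41.9%) for HNF1 and for 8 (25.8%) for STAT, against 3.86%, 8.33% and 8.3% of 32851 windows of the same length over all annotated starts. A member counted once if any of its windows held a match, while the comparison counts single windows, so the shares are not strictly alike. The windows of Mbl2, Cfhr2, C9 and F2 are shown because these genes had the smallest p-values under DEHP in their role class among the 4 classes with the smallest p-values. Capitals mark matched letters, 5′ to 3′ on the strand of the gene.
Mbl2, chr19:30232678-30232977, plus strand: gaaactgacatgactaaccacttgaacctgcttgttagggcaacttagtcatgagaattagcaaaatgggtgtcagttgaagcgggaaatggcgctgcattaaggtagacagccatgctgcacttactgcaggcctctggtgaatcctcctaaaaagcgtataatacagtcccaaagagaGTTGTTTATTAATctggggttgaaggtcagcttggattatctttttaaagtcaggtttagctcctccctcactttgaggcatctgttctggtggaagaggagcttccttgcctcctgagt
Cfhr2, chr1:139858650-139858949, minus strand: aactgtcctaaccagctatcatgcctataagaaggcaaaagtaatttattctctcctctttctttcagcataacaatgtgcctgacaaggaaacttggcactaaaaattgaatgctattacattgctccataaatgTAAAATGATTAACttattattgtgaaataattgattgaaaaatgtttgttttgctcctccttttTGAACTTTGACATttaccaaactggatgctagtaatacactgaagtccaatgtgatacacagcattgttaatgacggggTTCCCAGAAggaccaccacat
C9, chr15:6445096-6445395, plus strand: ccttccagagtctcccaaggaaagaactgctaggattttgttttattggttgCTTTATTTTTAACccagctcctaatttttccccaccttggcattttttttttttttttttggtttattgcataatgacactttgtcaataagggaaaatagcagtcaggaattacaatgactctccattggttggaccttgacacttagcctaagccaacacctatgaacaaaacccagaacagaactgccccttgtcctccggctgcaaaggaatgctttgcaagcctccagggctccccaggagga
F2, chr2:91636408-91636707, minus strand: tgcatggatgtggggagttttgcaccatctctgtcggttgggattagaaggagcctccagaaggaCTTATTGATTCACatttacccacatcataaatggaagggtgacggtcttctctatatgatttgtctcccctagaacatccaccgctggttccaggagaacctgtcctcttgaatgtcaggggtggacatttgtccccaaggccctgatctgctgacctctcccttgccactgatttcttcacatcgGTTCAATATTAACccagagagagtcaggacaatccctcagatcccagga
The capitals in Mbl2 and C9 are HNF1 matches with 3 mismatches, starting at -70 and -198 from the start base. Coordinates here and below are RefSeq's on GRCm38.p6. F2 held HNF1 matches at -185, with 3 mismatches, and at 1, with 2 mismatches. Cfhr2 held an HNF1 match at -114 with 3 mismatches, a DR1 match at -50 with 2 mismatches and a STAT match at 29. The other 2 windows with a DR1 match were those of Masp2 and F7. No match overlapped another of a different motif in these 4 windows, and a match of letters is no evidence of binding.

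Each library held between 9738 and 10641 genes at 1 FPKM or more, at an estimated depth, in units of 1e6 fragments, of 9.5 to 14.5. Summed FPKM ran from 573429 to 647703 at 90 days and from 514267 to 547757 at 28 days. Pparg itself stood between 1.51 and 7.65 FPKM in the 28 libraries, and the test of KO against WT called it in none of the 4 strata. Whole liver therefore does not check the knockout, which the labels place in macrophages. All 12 libraries at 28 days held 26.7 to 41.0 FPKM of Xist and 0 of Ddx3y, Uty, Kdm5d and Eif2s3y, against 0 to 0.02 FPKM of Xist and 12.2 to 21.2 FPKM of Eif2s3y in the 16 libraries at 90 days. This goes against the male label at 28 days, so the time points differ in sex-linked transcripts too, and every difference between times below carries both. The summed FPKM of 14 exocrine pancreas genes was 9329.9 to 39383 in KO DEHP replicates 1 to 3, 24105 in WT DEHP replicate 4 and 14668 in WT CMC replicate 4 at 90 days, and 9.7 to 51.7 in the other 23 libraries. The sum of 12 sinusoidal endothelial markers was 62.1 in KO DEHP replicate 4 at 90 days, and 47.1 in WT DEHP replicate 5 and 67.3 in WT CMC replicate 7 at 28 days, against 104.6 to 213.2 in the other 25.

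Under DEHP the genes of clotting and complement were lower, most of all at 28 days. With limma on log2(FPKM + 1) and a Benjamini-Hochberg adjusted p under 0.05 over 11213 genes, 7 of 39 fell in KO DEHP livers at 90 days, 18 in WT DEHP livers at 90 days, 34 in KO DEHP livers at 28 days and 28 in WT DEHP livers at 28 days, each against the CMC livers of the same genotype and time. No member was called higher in any of these 4 comparisons. The share of all genes called lower was 1.18%, 1.84%, 8.77% and 6.17% in the same order, and of those called higher 4.47%, 4.96%, 11.6% and 10.3%. Among the 4052 genes with a mean of at least 10 FPKM, a level that all 39 members reach, it was 1.65%, 3.08%, 12.9% and 10.2%. In KO livers at 90 days the count was 0 without KO DEHP replicate 3, 1 without KO CMC replicate 3, 2 without KO CMC replicate 1 and 4 without KO DEHP replicate 4. In WT livers at 90 days it was 9 without WT DEHP replicate 4, and 10 without WT DEHP replicate 2, WT CMC replicate 1 or WT CMC replicate 2. With the libraries that hold pancreas transcripts left out, 1 member passed in KO livers, which then rest on 1 DEHP library, and 13 passed in WT livers. The median log2 fold change of the 39 was -0.19, -0.35, -0.72 and -0.56, beside 0.03, -0.01, -0.04 and -0.01 over all genes tested. Estimates lay below 0 for 35 of 39 members in KO livers at 90 days, and for all 39 in each of the other 3 comparisons. Every DEHP library lay below every CMC library for 12 members in KO livers at 90 days (all genes 3.46%), 19 in WT livers at 90 days (4.58%), 38 in KO livers at 28 days (22.5%) and 30 in WT livers at 28 days (11%).

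The falls at 28 days took in coagulation and complement alike, and those that passed at 90 days were mostly in complement. Of the 21 genes of coagulation and fibrinolysis, 0 fell in KO and 7 in WT livers at 90 days, and 19 in KO and 15 in WT livers at 28 days. Of the same 21, 4 in KO and 17 in WT livers had an unadjusted p under 0.05 at 90 days. All 21 estimates lay below 0 in WT livers at 90 days. At that cut-off stood 13 and 15 of the 18 complement genes, and 2000 and 2232 of all 11213 genes, in KO and WT livers. Of the 18 complement genes, 7 and 11 fell at 90 days and 15 and 13 at 28 days in KO and WT livers. Hc, C9, Cfhr2, C4bp and Vtn fell in all 4 comparisons, and F2, Kng1, C2, C8a, C8b, Masp2 and Cfi in 3. C3, Mbl1 and Cpb2 passed in none of them, although without 1 library Mbl1 passed in WT livers at 28 days (WT DEHP replicate 5 left out, adjusted p = 0.0276) and Cpb2 in WT livers at 90 days (WT CMC replicate 4 left out, adjusted p = 0.025). Pros1 passed once, in WT livers at 90 days, C6 passed once, in KO livers at 90 days, and the other 22 members passed in 2 comparisons each. In bulk liver, less RNA per hepatocyte and a smaller share of hepatocytes cannot be told apart. Of 7 hepatocyte markers, 0 fell in KO and 1 in WT livers at 90 days, and 5 in KO and 4 in WT livers at 28 days, with median log2 fold changes of -0.11, -0.15, -0.84 and -0.64. Apoa2, an apolipoprotein gene of that list, named after its value was seen, rose by 0.42 on the log2 scale in WT livers at 90 days (adjusted p = 0.0196). The 7 markers summed at 28 days to 49197 to 51217 FPKM in KO DEHP livers, against 74537 to 75857 in KO CMC livers, and 51432 to 55854 in WT DEHP livers, against 67423 to 81570 in WT CMC livers. The part of these markers in the members' falls was not tested. Of 12 PPARalpha target genes 8 and 11 rose at 90 days and 12 and 12 at 28 days in KO and WT livers.

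The members took up 2.53 ± 0.21% of summed FPKM in KO DEHP livers and 2.82 ± 0.34% in KO CMC livers at 90 days (SD, n = 4 each), and 2.23 ± 0.24% in WT DEHP livers and 3.06 ± 0.28% in WT CMC livers. At 28 days the shares were 2.05 ± 0.04% in KO DEHP livers and 3.36 ± 0.20% in KO CMC livers, and 2.76 ± 0.57% in WT DEHP livers and 3.57 ± 0.32% in WT CMC livers (SD, n = 3 each). The wide spread of WT DEHP livers at 28 days came with replicate 5, at 3.42%, against 2.42% and 2.44% in replicates 6 and 7.

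**Figure D1:**
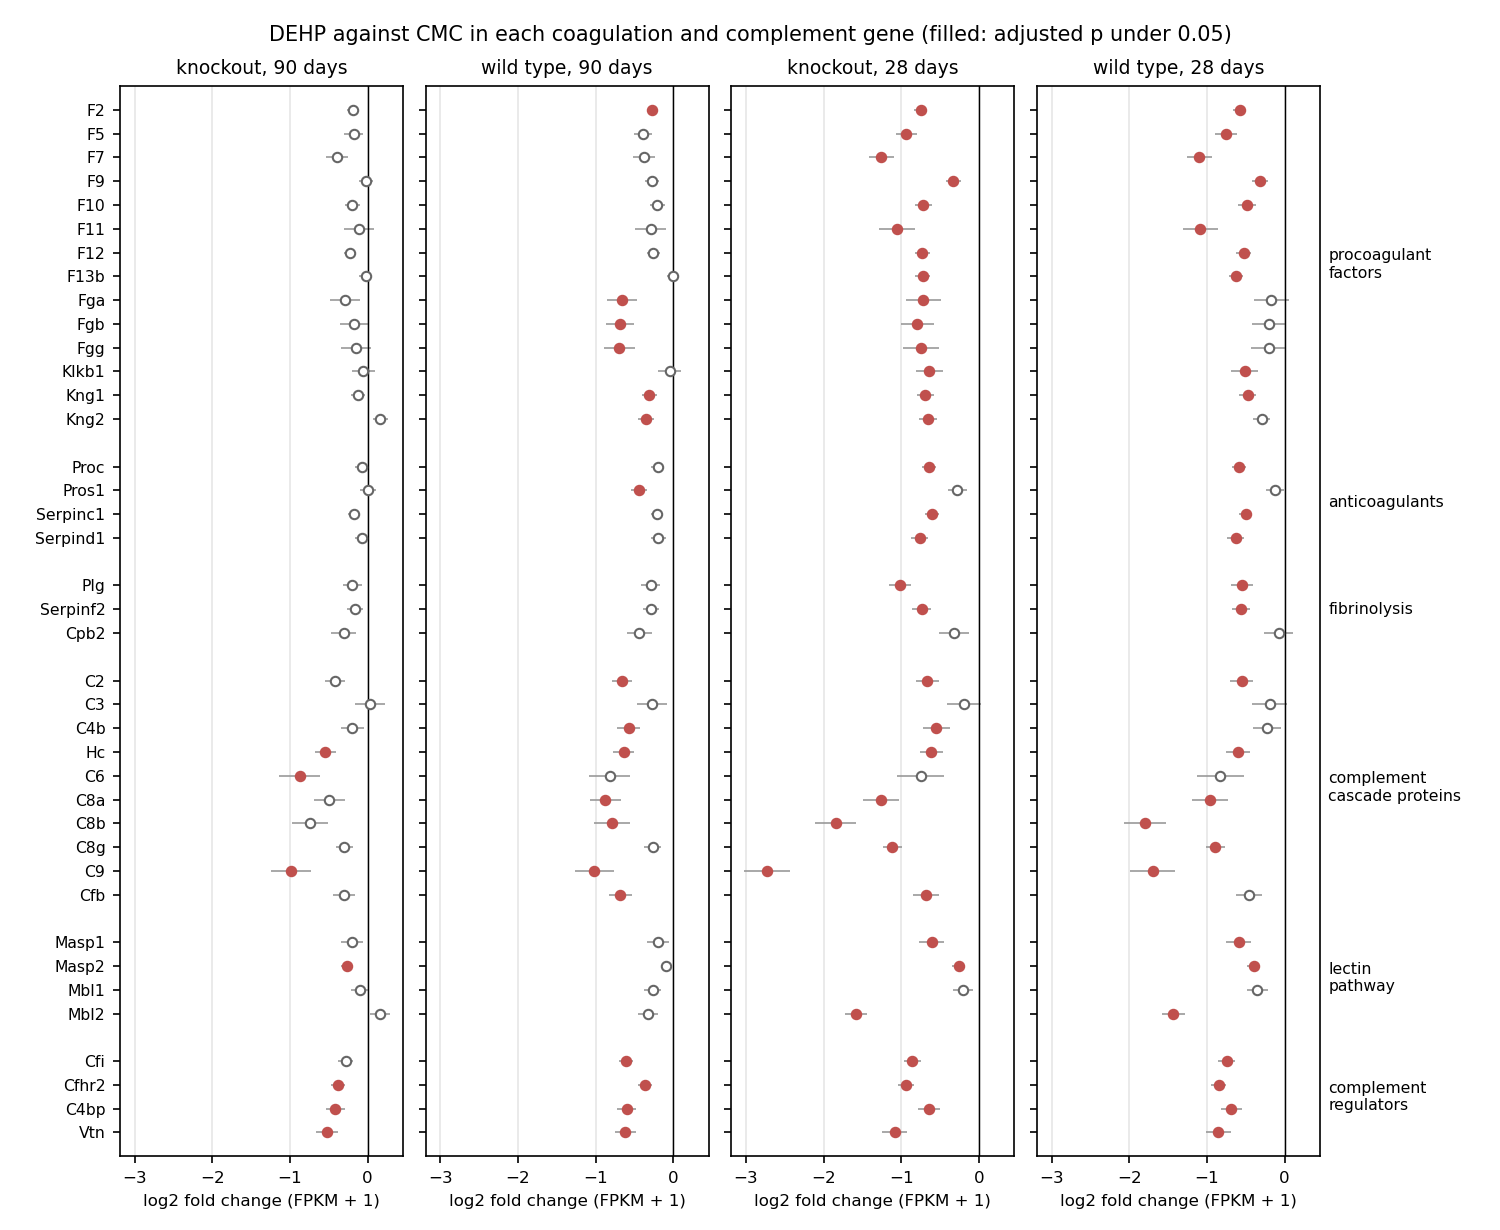
Log2 fold change of log2(FPKM + 1), DEHP over CMC, for each of the 39 genes in KO and WT livers at 90 and 28 days, with bars for the standard error and filled points for an adjusted p under 0.05. No filled point lies above 0, and 7, 18, 34 and 28 points are filled from left to right.

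Among the procoagulant factors, all 14 fell in KO and 10 in WT livers at 28 days, and 0 fell in KO and 6 in WT livers at 90 days. F2 (chr2:91612397-91636457) encodes prothrombin, whose active form cuts fibrinogen and activates platelets. It had 658, 694, 586 and 701 FPKM in KO DEHP livers, against 748, 747, 792 and 718 FPKM in KO CMC livers at 90 days. In WT livers at 90 days F2 had 612, 519, 655 and 579 FPKM in WT DEHP livers, against 732, 702, 687 and 721 FPKM in WT CMC livers. At 28 days F2 had 499, 503 and 512 FPKM in KO DEHP livers, against 827, 828 and 897 FPKM in KO CMC livers, and 574, 569 and 559 FPKM in WT DEHP livers, against 800.0, 864 and 875 FPKM in WT CMC livers. All DEHP libraries of F2 lay below all CMC libraries of the same genotype and time. The log2 fold change was -0.19 ± 0.07, adjusted p = 0.138, in KO livers at 90 days and -0.27 ± 0.07, adjusted p = 0.0221, in WT livers at 90 days. It was -0.75 ± 0.08, adjusted p = 3.0e-07, in KO and -0.58 ± 0.08, adjusted p = 1.7e-05, in WT livers at 28 days.

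F7 (chr8:13025506-13035809), which starts clotting together with tissue factor, had among the largest falls of the class at 28 days. It had 23.3, 25.6 and 24.8 FPKM in KO DEHP livers, against 55.4, 57.9 and 67.4 FPKM in KO CMC livers, and 40.3, 27.9 and 19.3 FPKM in WT DEHP livers, against 59.4, 61.1 and 62.5 FPKM in WT CMC livers. The groups did not overlap in either genotype, although the WT DEHP livers spread widely. The log2 fold changes at 28 days were -1.25 ± 0.16, adjusted p = 2.0e-06, in KO and -1.10 ± 0.16, adjusted p = 1.7e-05, in WT livers. At 90 days F7 had 39.2, 35.6, 33.2 and 38.2 FPKM in KO DEHP livers, against 43.9, 47.8, 57.3 and 44.8 FPKM in KO CMC livers, and 37.1, 29.6, 35.7 and 31.9 FPKM in WT DEHP livers, against 49.9, 42.7, 43.9 and 39.1 FPKM in WT CMC livers. The groups did not overlap here either, but F7 did not pass the test. It stood at -0.39 ± 0.14, adjusted p = 0.1, in KO and -0.38 ± 0.14, adjusted p = 0.104, in WT livers. In the fit on the 90-day libraries alone F7 passed in both genotypes, at adjusted p = 0.041 in KO and 0.0378 in WT livers.

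F13b (chr1:139501547-139523758) encodes the carrier subunit of factor XIII, which crosslinks fibrin. At 28 days F13b had 50.5, 62.5 and 58.0 FPKM in KO DEHP livers, against 95.9, 92.9 and 94.5 FPKM in KO CMC livers, and 47.9, 61.2 and 56.3 FPKM in WT DEHP livers, against 82.6, 94.9 and 78.7 FPKM in WT CMC livers. The groups did not overlap, and F13b fell by 0.72 and 0.62 on the log2 scale in KO and WT livers. At 90 days F13b had 66.3, 71.6, 67.7 and 66.8 FPKM in KO DEHP livers, against 67.2, 75.2, 66.2 and 68.9 FPKM in KO CMC livers, and 65.1, 64.4, 68.1 and 61.8 FPKM in WT DEHP livers, against 66.0, 64.8, 58.8 and 70.6 FPKM in WT CMC livers. There the groups overlapped and the estimates were -0.02 ± 0.08, adjusted p = 0.923, and -0.0025 ± 0.08, adjusted p = 0.995.

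F5, F9, F10, F11, F12 and Klkb1 fell in KO and WT livers at 28 days and passed in neither at 90 days. F11, the protease between contact activation and factor IX, fell by 1.05 and 1.08 on the log2 scale in KO and WT livers at 28 days. F5, the cofactor of factor X, fell by 0.94 and 0.76, and F9, the vitamin K dependent protease lacking in haemophilia B, by 0.33 and 0.31. F10, F12 and the prekallikrein gene Klkb1 fell by 0.71, 0.73 and 0.64 in KO and by 0.48, 0.53 and 0.52 in WT livers. In WT livers at 28 days the call of F9 ended without WT CMC replicate 6, WT DEHP replicate 5 or WT DEHP replicate 7 (adjusted p up to 0.215), and in KO livers without KO CMC replicate 5 or KO DEHP replicate 5 (up to 0.119). The call of Klkb1 in WT livers ended without WT CMC replicate 5, WT CMC replicate 6 or WT DEHP replicate 5, the last giving an adjusted p of 0.265. Kng1 and Kng2, neighbours on chromosome 16 that encode the kininogens, fell by 0.31 and 0.35 in WT livers at 90 days and by 0.69 and 0.66 in KO livers at 28 days. In WT livers at 28 days Kng1 fell by 0.47, and Kng2 stood at -0.30 ± 0.11, adjusted p = 0.0775, with an adjusted p of 0.00982 without WT DEHP replicate 5. These closely similar genes may share reads, so their split is uncertain. At 90 days the Kng1 call ended with the replicate number as a block (adjusted p = 0.0833) and without any of 7 of the 8 libraries (up to 0.153), and the Kng2 call without WT CMC replicate 1 or 2 or WT DEHP replicate 1, 2 or 3 (up to 0.105). F2 in WT livers at 90 days lost its call without WT CMC replicate 1 or 2 or WT DEHP replicate 2 or 4 (up to 0.0798).

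**Figure D2:**
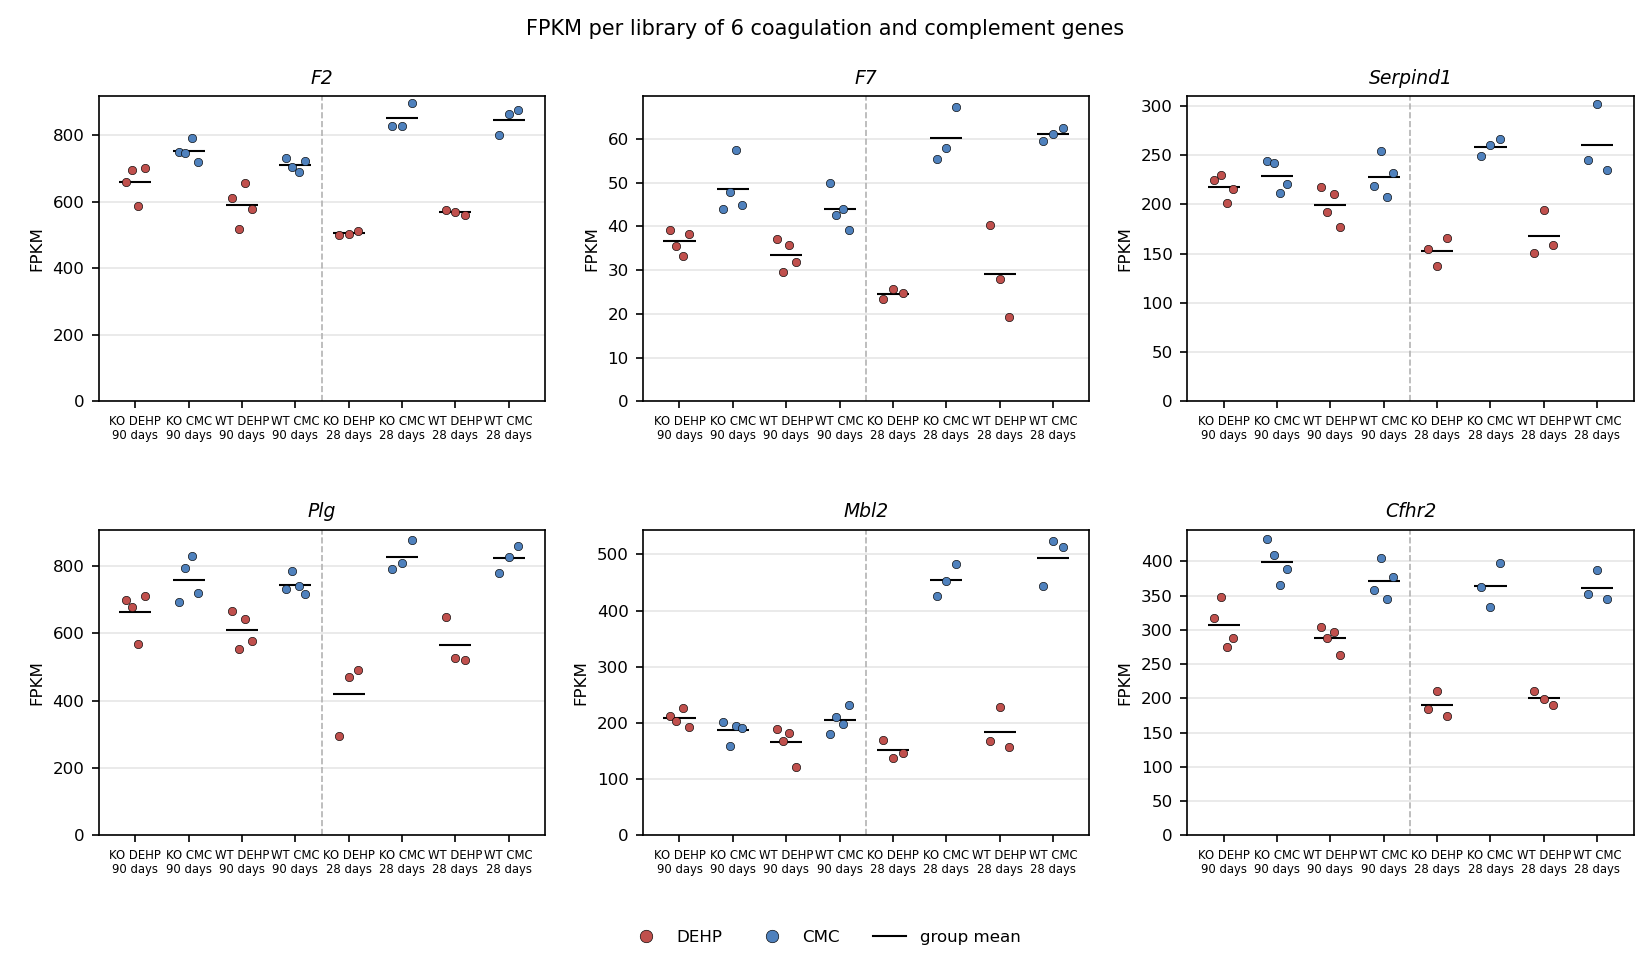
FPKM of F2, F7, Serpind1, Plg, Mbl2 and Cfhr2 in each of the 28 libraries, with points for libraries, lines for group means and a dashed line between the 90-day groups on the left and the 28-day groups on the right. In F2 the DEHP libraries lie below the CMC libraries of their genotype at both times, and in Mbl2 the 28-day CMC libraries stand far above all other groups.

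The 3 fibrinogen chains fell in WT livers at 90 days and in KO livers at 28 days. Fgb (chr3:83042246-83049863), the beta chain, had 2117, 1489.7, 1649 and 1634 FPKM in WT DEHP livers, against 2845, 3091, 3419 and 1883 FPKM in WT CMC livers at 90 days. At 28 days it had 1328, 1404 and 1372 FPKM in KO DEHP livers, against 2102, 2459 and 2572 FPKM in KO CMC livers. It fell by 0.68 on the log2 scale in WT livers at 90 days (adjusted p = 0.022) and by 0.79 in KO livers at 28 days (adjusted p = 0.00791), and the groups overlapped in the first. The other 2 strata did not pass. There Fgb had 2159.8, 2425, 2020.1 and 1925 FPKM in KO DEHP livers, against 2478, 2138, 3028 and 2040.2 FPKM in KO CMC livers at 90 days, and 3127, 1743 and 1862 FPKM in WT DEHP livers, against 2008, 2622 and 2959 FPKM in WT CMC livers at 28 days. Replicate 5 of the WT DEHP livers at 28 days stood above all 3 WT CMC livers. Fga and Fgg moved with Fgb: they fell by 0.67 and 0.70 in WT livers at 90 days and by 0.72 and 0.74 in KO livers at 28 days. Over the 28 libraries Fgb had 1.04 to 1.22 times the FPKM of Fgg and Fga 0.659 to 0.838 times, while the highest library of Fgb had 2.57 times its lowest. Each of these WT calls at 90 days ended without WT CMC replicate 1, 2 or 3 or WT DEHP replicate 2, 3 or 4, with adjusted p up to 0.128, 0.0896 and 0.113 for Fga, Fgb and Fgg. At 28 days in KO livers Fgb kept its call, and those of Fga and Fgg ended without any of 4 and 5 of the 6 libraries (up to 0.0922 and 0.0734).

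Fibrinogen is also an acute phase protein, and the summed level of 14 other acute phase genes is given beside it. At 90 days their sum was 6121 to 7569 FPKM in WT DEHP replicates 1 to 3 and 18996 in replicate 4, against 24210.1 to 44463 FPKM in WT CMC replicates 1 to 3 and 5835 in replicate 4. Of the 14, 4 fell in WT livers at 90 days, among them Saa3, Cp and Crp, with a median log2 fold change of -0.86 over the list, and 0 fell in KO livers, with a median of -0.59 and 1 unadjusted p under 0.05. At 28 days 2 fell in KO and 1 in WT livers, with medians of -0.45 and -0.04. WT CMC replicate 4 at 90 days, with the lowest sum of its group, also had the lowest Fgb of the 4 libraries, 1883 FPKM. WT DEHP replicate 4 at 90 days, with the highest sum of its group, had 1634 FPKM of Fgb, against 2117, 1489.7 and 1649 FPKM in replicates 1 to 3. The acute phase sum was 28983 FPKM in WT DEHP replicate 5 at 28 days, against 5125 and 5209 in replicates 6 and 7. KO CMC replicate 3 at 90 days had the highest sum, 60004 FPKM, with 3028 FPKM of Fgb. In KO livers at 28 days the sums were 4969 to 5430 FPKM under DEHP and 6134 to 6692 under CMC. The part of the acute phase genes in the fibrinogen differences was not tested.

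**Figure D3:**
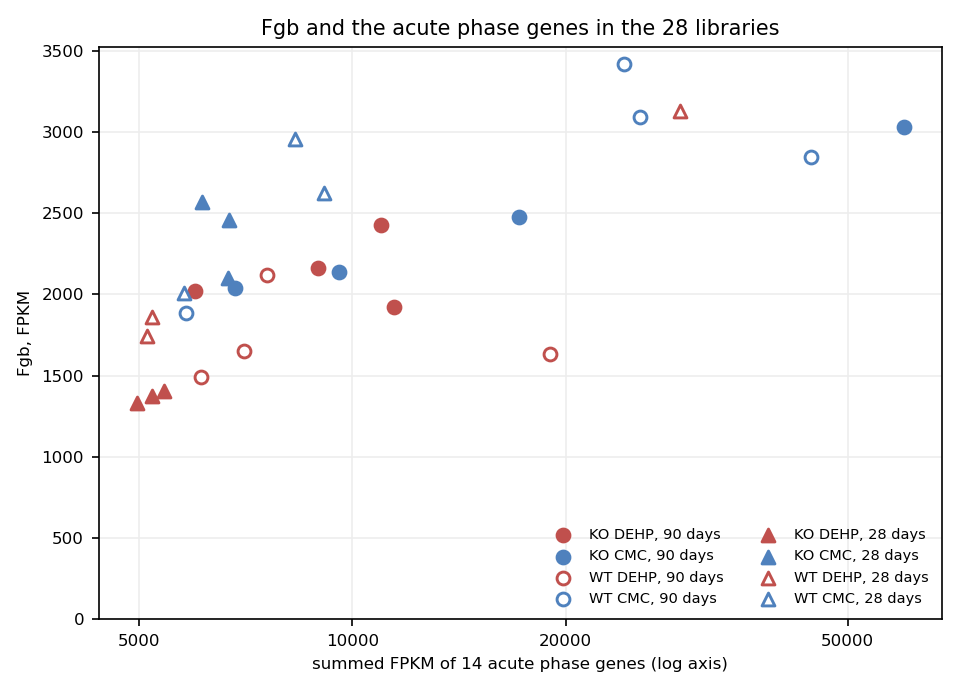
FPKM of Fgb against the summed FPKM of 14 acute phase genes (log axis) in each of the 28 libraries, filled for KO and open for WT. Fgb exceeds 2800 FPKM in the 5 libraries with the highest acute phase sums, 24210.1 FPKM or more, and in WT CMC replicate 7 at 28 days, whose sum is 8292 FPKM.

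Of the 4 anticoagulant genes 3 fell at 28 days in both genotypes, namely Proc, Serpind1 and Serpinc1. Proc encodes protein C, which when activated by thrombin inactivates factors V and VIII. It had 159.6, 177 and 172 FPKM in KO DEHP livers, against 244, 272 and 280.0 FPKM in KO CMC livers, and 185, 177 and 163 FPKM in WT DEHP livers, against 257, 252 and 280.4 FPKM in WT CMC livers at 28 days. No library of Proc crossed between groups, and it fell by 0.65 and 0.59 on the log2 scale. At 90 days the groups overlapped, and Proc had 249, 255, 227 and 258 FPKM in KO DEHP livers, against 252, 272, 255 and 265 FPKM in KO CMC livers, and 221, 187, 239 and 196 FPKM in WT DEHP livers, against 253, 231, 221 and 263 FPKM in WT CMC livers. Serpind1 (chr16:17331371-17343574) encodes heparin cofactor II, an inhibitor of thrombin. At 28 days Serpind1 had 154, 138 and 166 FPKM in KO DEHP livers, against 249, 260.3 and 266 FPKM in KO CMC livers, and 151, 194 and 159 FPKM in WT DEHP livers, against 245, 302 and 235 FPKM in WT CMC livers. It fell by 0.76 and 0.63 with no overlap between groups. At 90 days Serpind1 had 225, 229.8, 202 and 216 FPKM in KO DEHP livers, against 244, 242, 211 and 220.2 FPKM in KO CMC livers, and 218, 192, 210.4 and 177 FPKM in WT DEHP livers, against 219, 254, 207 and 232 FPKM in WT CMC livers, with overlap in both genotypes. Its log2 fold change in KO livers at 90 days was -0.07 ± 0.10, and 0.0049 when libraries were scaled to the same sum of FPKM.

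Serpinc1, which encodes antithrombin, fell by 0.60 and 0.50 on the log2 scale in KO and WT livers at 28 days and stood at -0.17 ± 0.08, adjusted p = 0.23, and -0.21 ± 0.08, adjusted p = 0.114, at 90 days. Pros1, which encodes protein S, the cofactor of protein C, fell by 0.44 in WT livers at 90 days (adjusted p = 0.00869). It stood at 0.00 ± 0.10, adjusted p = 1, in KO livers at 90 days, and at -0.28 ± 0.12, adjusted p = 0.104, and -0.12 ± 0.12, adjusted p = 0.578, in KO and WT livers at 28 days.

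In fibrinolysis Plg and Serpinf2 fell at 28 days, and Cpb2 passed in no comparison. Plg (chr17:12378609-12419384) encodes plasminogen, the precursor of plasmin. It had 294, 471 and 493 FPKM in KO DEHP livers, against 792, 809.6 and 879 FPKM in KO CMC livers, and 649, 528 and 519.8 FPKM in WT DEHP livers, against 779.7, 828 and 861 FPKM in WT CMC livers at 28 days. These groups did not overlap, and the log2 fold changes were -1.01 ± 0.14, adjusted p = 6.3e-06, in KO and -0.55 ± 0.14, adjusted p = 0.00713, in WT livers. At 90 days Plg had 698, 678, 569.8 and 713 FPKM in KO DEHP livers, against 693, 795, 829.7 and 721 FPKM in KO CMC livers, and 665, 552, 644 and 579 FPKM in WT DEHP livers, against 731, 786, 742 and 716 FPKM in WT CMC livers. The libraries overlapped in KO but not in WT livers, and the estimates were -0.19 ± 0.12, adjusted p = 0.435, and -0.29 ± 0.12, adjusted p = 0.171. Serpinf2, which encodes the plasmin inhibitor alpha-2-antiplasmin, fell by 0.74 in KO and 0.56 in WT livers at 28 days and stood at -0.16 and -0.29 at 90 days. Cpb2, a carboxypeptidase that protects fibrin from plasmin, stood at -0.32 ± 0.19, adjusted p = 0.253, and -0.08 ± 0.19, adjusted p = 0.852, in KO and WT livers at 28 days.

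The early complement proteins took part unevenly, and C3, on which all routes converge, passed in none of the 4 DEHP comparisons. C3 averaged 1569.6 ± 19.3 FPKM in KO DEHP livers and 1792 ± 128 FPKM in KO CMC livers at 28 days (SD, n = 3 each). Its log2 fold change there was -0.19 ± 0.22, adjusted p = 0.615, although every DEHP library lay below every CMC library. For C3 in KO livers at 90 days the estimate was 0.03 ± 0.19, adjusted p = 0.96, and it lay below 0, at -0.032, with upper quartile scaling. C2, the protease of the classical and lectin C3 convertase, fell by 0.66 on the log2 scale in WT livers at 90 days and by 0.66 and 0.55 in KO and WT livers at 28 days, and stood at -0.42 ± 0.13, adjusted p = 0.0563, in KO livers at 90 days, where it passed without KO DEHP replicate 1 (0.0492) or KO CMC replicate 4 (0.0219) and with upper quartile scaling (0.0359). C4b, the other component of that convertase, fell by 0.57 in WT livers at 90 days and by 0.55 in KO livers at 28 days. Cfb, which takes the place of C2 in the alternative route, fell in the same 2 comparisons, by 0.68 and 0.68. The calls of C4b ended without any of 4 libraries in each genotype, namely WT CMC replicate 1, 2 or 3 or WT DEHP replicate 2 at 90 days (adjusted p up to 0.0829) and KO CMC or KO DEHP replicate 6 or 7 at 28 days (up to 0.105). The call of C2 in WT livers at 28 days ended without WT DEHP replicate 7 (adjusted p = 0.0572). C4b lies beside its near-copy C4a, and reads may be split between them.

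The proteins of the terminal complement genes build the membrane attack complex. Averaged over genotypes, the largest falls among the members were in C9 and C8b of this group at 28 days, and in C9 and C6 at 90 days. Not all of the group fell as far. At 28 days Mbl2, at -1.51 on the log2 scale, lay beyond C8a at -1.11, and at 90 days C8g stood at -0.28. C9 (chr15:6445346-6498825), which polymerizes into the pore, fell in all 4 comparisons. It had 12.1, 11.8 and 22.4 FPKM in KO DEHP livers, against 95.9, 110.5 and 105 FPKM in KO CMC livers at 28 days. In WT livers at 28 days C9 had 53.5, 41.8 and 18.2 FPKM in WT DEHP livers, against 104, 134 and 107 FPKM in WT CMC livers. At 90 days C9 had 218, 237, 133 and 164 FPKM in KO DEHP livers, against 395, 349, 420.2 and 303 FPKM in KO CMC livers, and 216, 169, 179 and 115 FPKM in WT DEHP livers, against 373, 362, 361 and 259 FPKM in WT CMC livers. Every DEHP library lay below every CMC library of the same genotype and time. The log2 fold changes of C9 were -0.98 ± 0.25, adjusted p = 0.0231, in KO and -1.01 ± 0.25, adjusted p = 0.0147, in WT livers at 90 days. They were -2.73 ± 0.29, adjusted p = 1.9e-07, in KO and -1.70 ± 0.29, adjusted p = 1.5e-04, in WT livers at 28 days. The calls at 90 days ended without KO CMC replicate 1 or 3 or KO DEHP replicate 3 or 4 (adjusted p up to 0.105) and without WT DEHP replicate 4 (0.0792).

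C8g (chr2:25498650-25501777) encodes the gamma subunit of C8, a lipocalin. At 28 days C8g had 131, 148 and 179 FPKM in KO DEHP livers, against 333, 323 and 329.5 FPKM in KO CMC livers, and 242, 178 and 165 FPKM in WT DEHP livers, against 354, 328 and 392 FPKM in WT CMC livers. It fell by 1.11 and 0.89 on the log2 scale. At 90 days C8g had 297, 282, 231 and 277 FPKM in KO DEHP livers, against 348, 304, 336 and 347 FPKM in KO CMC livers, and 254, 260.0, 269 and 224 FPKM in WT DEHP livers, against 294, 311, 293 and 309 FPKM in WT CMC livers. The groups did not overlap in any of the 4 comparisons, although at 90 days C8g did not pass, at -0.30 ± 0.11, adjusted p = 0.106, and -0.26 ± 0.11, adjusted p = 0.152. C8a (chr4:104815679-104876487), the alpha subunit of the same complex, had 26.7, 27.5 and 30.2 FPKM in KO DEHP livers, against 71.5, 85.8 and 53.1 FPKM in KO CMC livers, and 61.8, 44.4 and 32.3 FPKM in WT DEHP livers, against 66.8, 106 and 95.8 FPKM in WT CMC livers at 28 days. The groups of C8a did not overlap, and it fell by 1.26 and 0.96. At 90 days C8a had 183, 249, 137 and 139 FPKM in KO DEHP livers, against 252, 206, 303 and 220.4 FPKM in KO CMC livers, and 178, 140.4, 157 and 113 FPKM in WT DEHP livers, against 272, 302, 274 and 224 FPKM in WT CMC livers. It fell by 0.87 in WT livers, and in KO livers stood at -0.49 ± 0.20, adjusted p = 0.179. The WT calls of C8a ended without WT DEHP replicate 4 at 90 days (adjusted p = 0.0513) and without WT DEHP replicate 7 at 28 days (0.0504).

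C8b, the beta subunit, fell by 0.79 in WT livers at 90 days and by 1.84 and 1.80 in KO and WT livers at 28 days, and stood at -0.74 ± 0.23, adjusted p = 0.0606, in KO livers at 90 days, where it passed without KO DEHP replicate 2 (0.0269). The call in WT livers at 90 days ended without WT CMC replicate 1, 2 or 3 or WT DEHP replicate 2 or 4 (adjusted p up to 0.19). Hc, the mouse name of C5, from which the anaphylatoxin C5a is cut, fell by 0.54 and 0.64 in KO and WT livers at 90 days and by 0.61 and 0.60 at 28 days. Its call in KO livers at 90 days ended without KO CMC replicate 1 or 3 or KO DEHP replicate 3 (up to 0.0751), and that in WT livers at 28 days without WT CMC replicate 6 (0.0716). C6 (chr15:4727067-4804045), which binds C5b first, had 68.8, 87.5, 47.5 and 45.5 FPKM in KO DEHP livers, against 112, 107, 115 and 110.5 FPKM in KO CMC livers, and 83.0, 60.3, 76.5 and 31.5 FPKM in WT DEHP livers, against 106, 118, 121 and 79.1 FPKM in WT CMC livers at 90 days. C6 fell in KO livers, by 0.88 on the log2 scale (adjusted p = 0.0479), and that call ended without any of 7 of the 8 libraries (up to 0.17). In WT livers C6 stood at -0.82 ± 0.26, adjusted p = 0.0576. It passed with the replicate number as a block (adjusted p = 0.0305) or with upper quartile scaling (0.0391). Leaving out WT DEHP replicate 1 (0.0289) or WT CMC replicate 4 (0.0341) also made it pass. At 28 days C6 was far lower, with 6.88, 5.15 and 5.37 FPKM in KO DEHP livers, against 9.35, 15.6 and 7.53 FPKM in KO CMC livers, and 2.71, 6.56 and 4.83 FPKM in WT DEHP livers, against 9.72, 9.57 and 7.06 FPKM in WT CMC livers. All DEHP libraries were below all CMC libraries here, and the estimates, which the added constant of 1 FPKM makes smaller, were -0.75 ± 0.30, adjusted p = 0.0834, and -0.83 ± 0.30, adjusted p = 0.0628. Without WT DEHP replicate 6 C6 passed in WT livers (adjusted p = 0.0307). With a constant of 0.1 FPKM the WT estimate was -0.96 and passed (adjusted p = 0.0414), as it did with upper quartile scaling (0.0398). In KO livers C6 passed under neither of these settings.

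**Figure D4:**
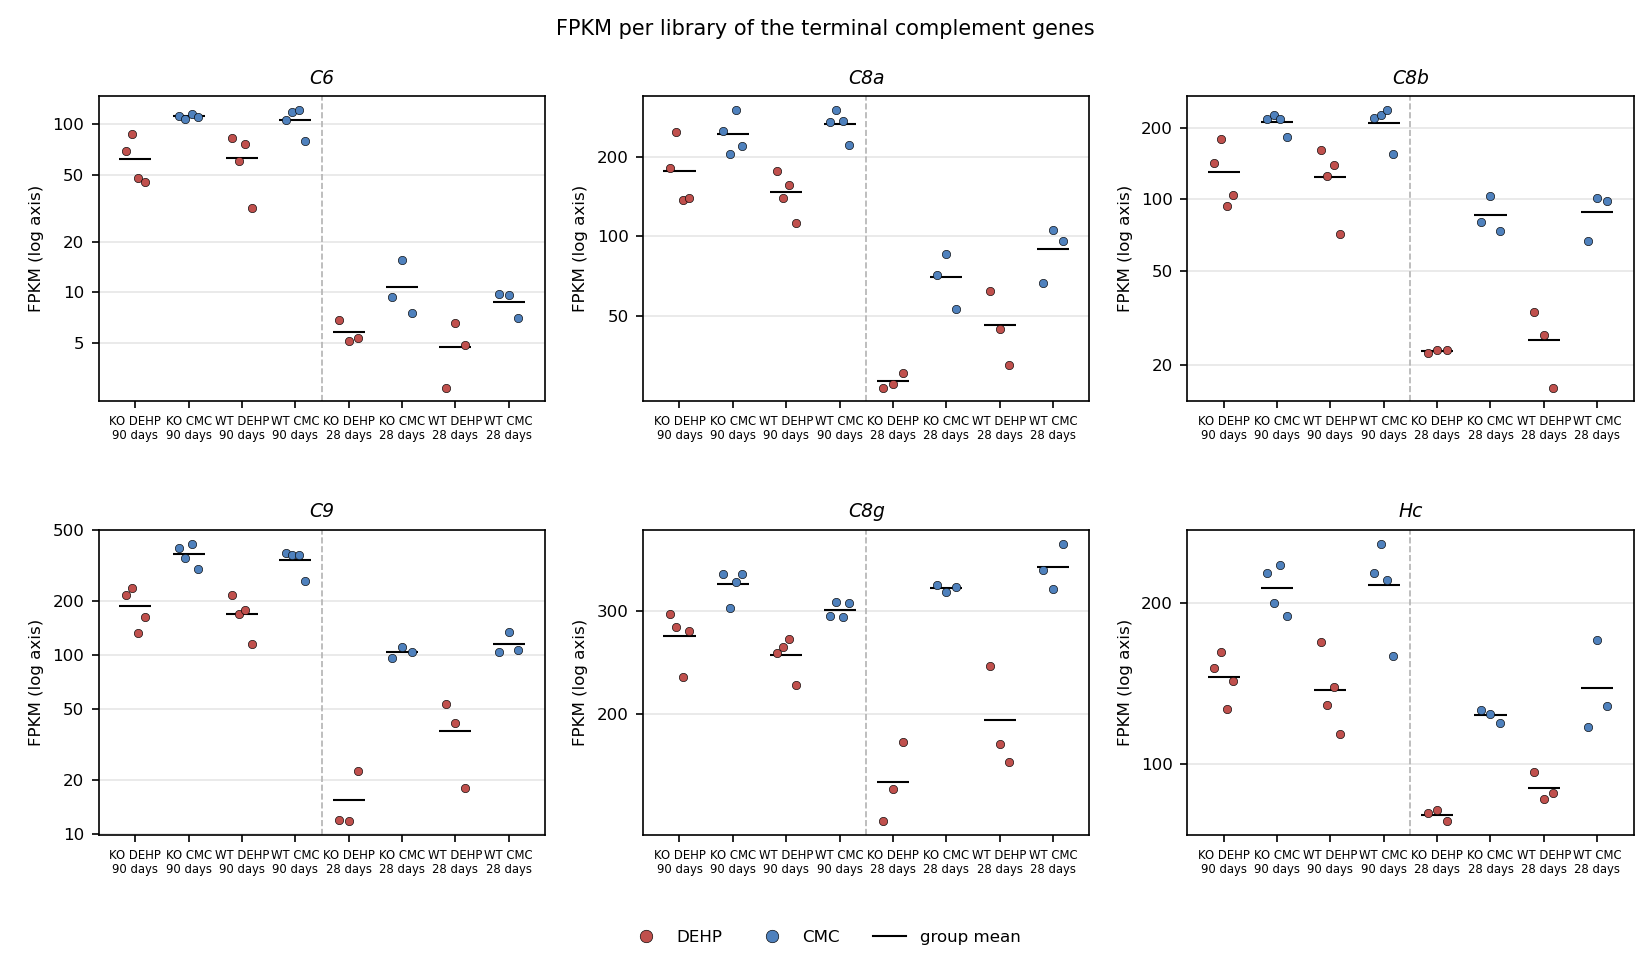
FPKM (log axis) of the terminal complement genes C6, C8a, C8b, C9, C8g and Hc in each of the 28 libraries, with points for libraries and lines for group means. C6 lies between 31.5 and 121 FPKM in all libraries at 90 days and between 2.71 and 15.6 FPKM in all libraries at 28 days.

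In the lectin pathway 3 of 4 genes fell in each genotype at 28 days. Mbl2 (chr19:30232906-30239687), whose product mannose-binding lectin C recognizes sugars on microbes, had the smallest p-value of all members. At 28 days Mbl2 had 169, 138 and 146 FPKM in KO DEHP livers, against 426, 453 and 482 FPKM in KO CMC livers, and 168, 228 and 157 FPKM in WT DEHP livers, against 443, 524 and 514 FPKM in WT CMC livers. The groups stood far apart, at log2 fold changes of -1.58 ± 0.15, adjusted p = 2.2e-08, in KO and -1.43 ± 0.15, adjusted p = 1.4e-07, in WT livers. At 90 days Mbl2 had 213, 203, 227 and 192 FPKM in KO DEHP livers, against 202, 159, 195 and 191 FPKM in KO CMC livers, and 189, 168, 183 and 121 FPKM in WT DEHP livers, against 179.9, 211, 198 and 233 FPKM in WT CMC livers. The groups overlapped, and the estimates were 0.16 ± 0.13, adjusted p = 0.564, and -0.33 ± 0.13, adjusted p = 0.132. Mbl1, which encodes the related lectin A, passed in no comparison, and the ratio of Mbl2 to Mbl1 was 0.704 to 1.17 in KO DEHP livers, 2.02 to 2.68 in KO CMC livers, 0.895 to 1.41 in WT DEHP livers and 2.29 to 2.52 in WT CMC livers at 28 days.

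Masp2 (chr4:148594622-148615499) encodes the protease that mannose-binding lectin activates to cleave C4 and C2. At 90 days Masp2 had 111, 115, 108 and 119.8 FPKM in KO DEHP livers, against 125, 142, 149.5 and 133 FPKM in KO CMC livers, and 129, 111, 127 and 121 FPKM in WT DEHP livers, against 139, 136, 118 and 128 FPKM in WT CMC livers. The groups overlapped in WT livers, and Masp2 fell in KO livers, by 0.27 on the log2 scale (adjusted p = 0.0268). At 28 days it had 89.5, 105 and 105 FPKM in KO DEHP livers, against 117, 116 and 124 FPKM in KO CMC livers, and 97.3, 104 and 96.2 FPKM in WT DEHP livers, against 128, 135 and 128 FPKM in WT CMC livers. Here the groups did not overlap, and Masp2 fell by 0.26 and 0.39. In KO livers its call ended without KO CMC replicate 2 or 3 or KO DEHP replicate 1 or 3 at 90 days (adjusted p up to 0.103) and without KO CMC replicate 5, 6 or 7 or KO DEHP replicate 5 at 28 days (up to 0.173). Masp1, the companion protease, fell by 0.61 and 0.59 at 28 days. The WT call of Masp1 ended without WT CMC replicate 5 or 6 or WT DEHP replicate 5 (up to 0.102).

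All 4 complement regulators fell in 3 comparisons, and 3 of them also in KO livers at 90 days. Cfhr2 (chr1:139810292-139858699) encodes a plasma protein related to factor H. At 90 days Cfhr2 had 318, 348, 275 and 289 FPKM in KO DEHP livers, against 433, 409.9, 366 and 389.6 FPKM in KO CMC livers, and 305, 289, 298 and 263 FPKM in WT DEHP livers, against 358, 405, 345 and 377 FPKM in WT CMC livers. At 28 days it had 184, 211 and 174 FPKM in KO DEHP livers, against 362, 334 and 398 FPKM in KO CMC livers, and 210.3, 199 and 191 FPKM in WT DEHP livers, against 352, 388 and 345 FPKM in WT CMC livers. All 4 comparisons were free of overlap. Cfhr2 fell by 0.38 and 0.36 on the log2 scale at 90 days and by 0.94 and 0.85 at 28 days in KO and WT livers. Its calls at 90 days ended without KO DEHP replicate 3 (adjusted p = 0.0546) and without WT DEHP replicate 4 (0.0525). Genes of the factor H family are similar in sequence, and reads may be split among them.

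Cfi (chr3:129836727-129875332) encodes the protease that cleaves C3b and C4b. It had 173, 170.3 and 150.1 FPKM in KO DEHP livers, against 302, 294 and 299 FPKM in KO CMC livers, and 208, 187 and 185 FPKM in WT DEHP livers, against 278, 382 and 321 FPKM in WT CMC livers at 28 days. With no overlap between groups, Cfi fell by 0.86 and 0.74 on the log2 scale. At 90 days Cfi had 210.2, 251, 202 and 234 FPKM in KO DEHP livers, against 283, 250.5, 301 and 256 FPKM in KO CMC livers, and 191, 173, 198 and 181 FPKM in WT DEHP livers, against 285, 317, 258 and 276 FPKM in WT CMC livers. It fell by 0.61 in WT livers, where the groups did not overlap. In KO livers, where they did, Cfi stood at -0.28 ± 0.09, adjusted p = 0.0798, and passed with upper quartile scaling (0.0322). C4bp, which encodes the cofactor that serves Cfi against C4b, fell by 0.41 and 0.60 at 90 days and by 0.64 and 0.69 at 28 days in KO and WT livers. Vtn, whose product vitronectin keeps the attack complex out of membranes, fell by 0.53 and 0.62 at 90 days and by 1.08 and 0.85 at 28 days. Neither gene had overlapping groups in any comparison. The call of C4bp in KO livers at 90 days ended without KO CMC replicate 1 or 3 or KO DEHP replicate 1, 3 or 4 (adjusted p up to 0.162), and that of Vtn without KO CMC replicate 1 or 3 or KO DEHP replicate 3 (up to 0.119).

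Whether the response differed between the times was tested as the DEHP effect at 90 days minus that at 28 days, averaged over genotypes. For 21 of 39 members the difference passed above 0, that is, the level under DEHP was less reduced at 90 days, and for 0 it passed below, while 23 had an unadjusted p under 0.05. Over all genes 4.99% passed above 0 and 4.82% below, and 2389 of 11213 had an unadjusted p under 0.05. The median difference was 0.39 log2 units over the members and 0.02 over all genes. Mbl2 had the largest difference, 1.43 ± 0.14, adjusted p = 1.3e-07, followed by C9 at 1.21 ± 0.27, adjusted p = 0.00436, and C8b at 1.05 ± 0.25, adjusted p = 0.00669. F11, F7, C8g and F13b had differences of 0.87, 0.79, 0.72 and 0.66. Differences of 0.56, 0.56, 0.54, 0.53, 0.52, 0.48 and 0.43 were found for F5, Serpind1, Plg, Klkb1, Cfhr2, Proc and F2. The other 7 lay between 0.36 for Cfi and 0.42 for Serpinf2. The call of Klkb1 ended without any of 14 of the 28 libraries (adjusted p up to 0.0773) and that of Cfi without WT CMC replicate 6 at 28 days (0.0547). Length of dosing and the difference in sex-linked transcripts cannot be told apart here. Of 7 hepatocyte markers 5 passed above 0 in the same test, with a median of 0.61, and their part in the members' differences was not tested.

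**Figure D5:**
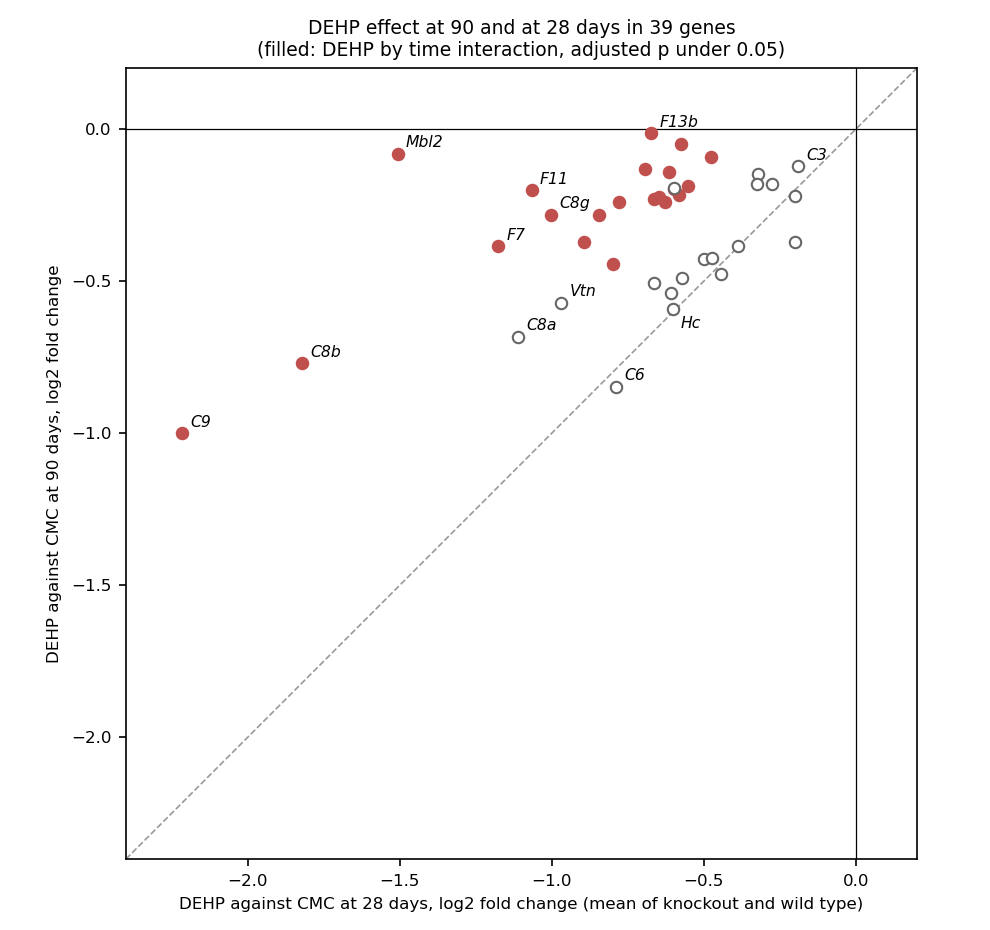
Mean DEHP log2 fold change over both genotypes at 90 days (y axis) against 28 days (x axis) for the 39 genes, with the line of equality, on which a gene would lie with equal effects. The 21 genes whose difference passed lie above the line, Mbl2 farthest from it.

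No member passed the test of KO against WT livers. The count was 0 of 39 in DEHP or CMC livers at 90 days, in DEHP or CMC livers at 28 days, or in the mean of the 4 strata. In that order 8, 0, 13, 0 and 2 members had an unadjusted p under 0.05. Of all 11213 genes 1334, 760, 672, 527 and 1419 did so. Estimates lay below 0 for 3 of 39 members in DEHP and 18 in CMC livers at 90 days, and for 33 and 24 at 28 days. Over all genes, 0.348% and 0.161% were called higher and lower in DEHP livers and 0% and 0.00892% in CMC livers at 90 days. At 28 days the shares were 0% and 0.0178% in DEHP livers and 0% and 0.0446% in CMC livers, and over the mean of the 4 strata 0.268% and 0.125%. The median log2 fold change of the members was 0.13 in DEHP and 0.01 in CMC livers at 90 days, and -0.17 in DEHP and -0.03 in CMC livers at 28 days. Kng2 came nearest at 90 days, with 0.38 ± 0.10, adjusted p = 0.0766, under DEHP, and C9 at 28 days, with -1.17 ± 0.29, adjusted p = 0.398. Without WT DEHP replicate 4 Kng2 passed at an adjusted p of 0.0478, and without WT DEHP replicate 7 C9 passed at 0.0161 with a log2 fold change of -1.62. The DEHP effect in KO minus that in WT livers also passed for 0 members at either time (all genes 0% higher and 0% lower at 90 days, 0.0178% and 0% at 28 days). An unadjusted p under 0.05 was found for 4 members at 90 days and 3 at 28 days, and for 653 and 335 of all 11213 genes. The 4 were Kng2 at 0.52, Mbl2 at 0.49, Pros1 at 0.44 and Cfi at 0.33, and the 3 were C9 at -1.03, Plg at -0.47 and Kng2 at -0.36. At 90 days 5 members passed in both genotypes, 2 in KO alone and 13 in WT alone. At 28 days 28 passed in both, 6 in KO alone and 0 in WT alone. The same split was not counted over all genes, so it is no measure of a genotype difference. At 90 days 0 of the 7 KO calls and 7 of the 18 WT calls held in every omission of 1 library.

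Without DEHP, the terminal complement genes C6, C8a, C9 and C8b differed most between the times, while C8g of the same group was not called. In CMC livers of both genotypes 9 members were higher and 8 lower at 90 days than at 28 days, where 4.46% and 19.3% of all genes were called higher and lower. An unadjusted p under 0.05 was found for 21 members and for 3982 of all 11213 genes. C6 had 112, 107, 115 and 110.5 FPKM in KO CMC and 106, 118, 121 and 79.1 FPKM in WT CMC livers at 90 days, against 9.35, 15.6 and 7.53 FPKM in KO CMC and 9.72, 9.57 and 7.06 FPKM in WT CMC livers at 28 days. It rose by 3.38 ± 0.20 log2 units, adjusted p = 1.9e-12, the largest difference of any member, with no overlap between times. C8a rose by 1.70, C9 by 1.67, C8b by 1.28 and Hc by 0.71 log2 units. C2, C4bp, C4b and Pros1 rose by 0.49, 0.41, 0.37 and 0.26. C8g had 293 to 348 FPKM at 90 days and 323 to 392 FPKM at 28 days in CMC livers. Mbl2 fell by 1.27, C3 by 0.49, Serpinc1 by 0.45 and F13b by 0.41, and F7, F10, Serpinf2 and F2 by 0.39, 0.34, 0.31 and 0.21. As background, female mice of this strain are known to have less terminal complement activity in serum than males. Time and the sex-linked transcripts described above cannot be told apart here. The median log2 fold change was 0.00 over the members and -0.10 over all genes, and scaling moved these calls. With upper quartile scaling, which sets the all-gene median at 0.00, C3, F2, F7, F10 and Serpinf2 lost their calls. With libraries scaled to the same sum of FPKM, which sets it at -0.29, C4b, C4bp and Pros1 lost theirs and 19 members were lower. C6, C8a, C8b, C9, Hc, C2, Mbl2, Serpinc1 and F13b kept call and direction under both. The call of C4b also ended without KO CMC replicate 5 or WT CMC replicate 5 at 28 days or KO CMC replicate 3 at 90 days (adjusted p up to 0.07), and that of Pros1 without WT CMC replicate 7 at 28 days (0.066).

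The C8 subunits stood in different ratios in different groups. Over the 28 libraries C6 ranged over 44.8-fold, C9 over 35.6-fold, C8b over 14.9-fold and C8a over 11.4-fold, while F9 ranged over 1.59-fold, the least of the members. The ratio of C8g to C8b was 5.84 to 7.71 in KO DEHP, 3.13 to 4.47 in KO CMC, 6.63 to 10.3 in WT DEHP and 3.24 to 5.32 in WT CMC livers at 28 days. At 90 days it was 1.57 to 2.66 in KO DEHP, 1.34 to 1.88 in KO CMC, 1.57 to 3.14 in WT DEHP and 1.23 to 1.98 in WT CMC livers. The ratio of C8a to C8b was 1.66 to 2.02 in WT DEHP livers and 0.977 to 1.05 in WT CMC livers at 28 days. These ratios are descriptions of FPKM with no test.

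Other genes of complement, clotting and the vitamin K cycle were read from 3 further lists. Of 24 other complement genes tested, 0 rose and 8 fell in KO and 0 rose and 7 fell in WT livers at 28 days. At 90 days 1 rose and 1 fell in KO livers, and 0 rose and 3 fell in WT livers. C1s1 and C1ra, the proteases of the C1 complex, fell by 1.75 and 1.10 on the log2 scale in KO and by 1.49 and 0.96 in WT livers at 28 days. C1s1 also fell at 90 days, by 0.50 and 0.61. The gene that rose in KO livers at 90 days, named after its values were seen, was Cfd, which encodes factor D of the alternative route. Cfd, which fat tissue also makes in abundance, had 18.3, 12.5, 23.9 and 6.84 FPKM in KO DEHP livers, against 0.53 FPKM in KO CMC replicate 3, and was listed at 0 in the other 3 KO CMC livers. The 3 libraries with pancreas transcripts, KO DEHP replicates 1 to 3, hold the highest values of this group, and the part of that tissue was not tested.

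Of 10 other genes of clotting and fibrinolysis, 0 passed in KO and 1 fell in WT livers at 90 days, and 2 fell in KO and 1 in WT livers at 28 days. In KO livers at 90 days 1 of the 10 had an unadjusted p under 0.05. Proz, which encodes protein Z, fell by 0.67 and 0.56 in KO and WT livers at 28 days, and Serpina10, the inhibitor that works with it, by 0.90 in WT livers at 90 days. Of 7 genes of the vitamin K cycle and of factor secretion, 1 rose in each comparison, and 0 fell at 90 days, 2 in KO and 3 in WT livers at 28 days. The gene that rose was Nqo1, a quinone reductase, at 0.98 and 1.14 at 90 days and 0.96 and 0.78 at 28 days in KO and WT livers. Vkorc1, the epoxide reductase that recycles vitamin K and is the target of warfarin, fell by 0.69 and 0.53 at 28 days.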

How the data were processed

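The deposited table holds FPKM values per gene for the 28 libraries of mouse liver, which the authors computed with Cuffdiff on the mouse genome (mm10, GRCm38), per the submitters' processing notes. No source used here names the aligner. Values in FPKM are normalised and were not treated as counts. Fragment numbers were estimated from the step between low FPKM values of 2290 genes of 300 to 1500 bases, and 73.8% to 81.7% of those values lay within 0.15 of a whole step, which is too few to recover counts.

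Genes at 1 FPKM or more in at least 3 libraries were kept, 11213 of 17792. A linear model with 8 group means was fitted to log2(FPKM + 1) over all 28 libraries with limma 3.58.1 in R 4.3.3, with an intensity trend, 20 residual and 4.17 prior degrees of freedom. Fold changes are on that scale, which understates the change of low genes. P-values were adjusted over all 11213 genes by the Benjamini-Hochberg method, and an adjusted p under 0.05 was the threshold. In simulated data with known answers the fit recovered, of 100 genes changed by 1 on the log2 scale, 91 in KO and 88 in WT livers at 90 days and 92 and 89 at 28 days, and of 100 changed by 0.5, 51 and 54 at 90 days and 42 and 35 at 28 days. In the same order 9, 4, 13 and 7 unchanged genes were called. The simulation changed 200 of 11213 genes, fewer than were called in the data, and drew noise independently. Deviations shared by many genes of 1 library were not simulated. Tables and figures were made with Python 3.11.15, numpy 2.4.6, pandas 2.3.3 and matplotlib 3.10.9.

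The members, lists and rules were chosen with earlier results of these data known. Values in every library are given for the 2 members of each role class with the smallest p-value under DEHP (1 in fibrinolysis), the 8 with the smallest p-value in the difference between times, and the 3 with the largest difference between times under CMC. Fgb was added after its values were seen. Promoters were printed for the first 4 members by this rule.

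Replicate numbers are shared between groups in the labels. Deviations from group means of same-numbered libraries correlated at 0.262, 0.252, 0.22 and 0.665 for DEHP and CMC in WT livers at 90 days. Every pair exceeded 0.1 there, and in no other comparison did every pair do so. The pair at 0.665 was replicate 4, whose libraries both hold pancreas transcripts, and the part of these was not tested. As alternatives, the fit was repeated with a pseudocount of 0.1, without the filter, with upper quartile scaling, with scaling to the same sum of FPKM, on 1 time point, with the replicate number as a block and with each library left out in turn. Leaving out the libraries with pancreas transcripts or with low endothelial markers was added after seeing the data.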

Additional observations from a re-analysis of the deposited data

Results flagged for a closer look

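In 156 groups of 4 libraries at 90 days, that is, 39 members in 4 groups, 6 held a library far from the other 3. Chance alone flags about 1 in 20 groups. Kng1 and Kng2 stood at 925 and 150.4 FPKM in KO DEHP replicate 4, against 765 to 792 and 132 to 133 FPKM in the other 3 libraries. That library is low in endothelial markers and holds 51.7 summed FPKM of pancreas genes, against 9329.9 to 39383 in the other 3 of its group and 30.4 to 40.2 in KO CMC livers. C4b, C9 and C4bp stood at 240.4, 259 and 246 FPKM in WT CMC replicate 4, against 306 to 319, 361 to 373 and 289 to 294 FPKM in the other 3. That library holds pancreas transcripts and has the lowest acute phase sum of its group. C2 stood at 36.9 FPKM in KO CMC replicate 4, against 48.2 to 49.9 FPKM. None of these differences has been tested for a cause.

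The DEHP effect differed between the times for 21 members, each by the test of the difference (90 days minus 28 days, log2 units). The values were 1.43 for Mbl2, 1.21 for C9, 1.05 for C8b, 0.87 for F11, 0.79 for F7, 0.72 for C8g and 0.66 for F13b. Differences of 0.56, 0.56, 0.54, 0.53 and 0.52 belonged to F5, Serpind1, Plg, Klkb1 and Cfhr2, and of 0.48, 0.43, 0.42 and 0.40 to Proc, F2, Serpinf2 and F10. F12, Kng2, Serpinc1, Kng1 and Cfi had 0.39, 0.38, 0.36, 0.36 and 0.36. The libraries of the 2 times also differ in sex-linked transcripts, so that length of dosing and these transcripts cannot be told apart.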

How the results depend on the processing

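Falls under DEHP kept their direction almost throughout, and the number of calls at 90 days depended most on single libraries. With 1 library left out in turn, the members called lower ranged from 0 to 8 in KO livers and from 9 to 21 in WT livers at 90 days, and from 30 to 32 in KO and from 24 to 29 in WT livers at 28 days. They numbered 19 to 22 for the difference between times, 8 to 10 higher and 8 to 9 lower for 90 against 28 days, and up to 1 for KO against WT under DEHP, higher at 90 days (0 to 1) and lower at 28 days (0 to 1). In KO livers at 90 days 4 members were lower with the same sum of FPKM and 1 without the libraries with pancreas transcripts, where the lone KO DEHP library is assumed to vary like the other groups. For 90 against 28 days 3 members were lower with upper quartile scaling and 19 with the same sum of FPKM, and the members' median was 0.13 and -0.23. Over all genes, upper quartile scaling changed the calls higher and lower under DEHP to 386 and 290 (main 501 and 132) in KO and 540 and 353 (main 556 and 206) in WT livers at 90 days, and to 1218 and 1444 (main 1301 and 983) in KO and 1050 and 1034 (main 1158 and 692) in WT livers at 28 days.

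Signs turned for genes that did not pass. C3 in KO livers at 90 days stood at 0.03 as reported, at -0.032 with upper quartile scaling and at -0.13 without the libraries low in endothelial markers, and ranged from -0.13 to 0.20 with 1 library left out, below 0 without KO DEHP replicate 4 or KO CMC replicate 2 or 4. Serpind1 in KO livers at 90 days stood at 0.0049 with the same sum of FPKM, and F13b at 0.0503 in KO and 0.0444 in WT livers. F13b ranged from -0.049 to 0.014 in KO and from -0.049 to 0.037 in WT livers at 90 days with 1 library left out, and stood at 0.0596 in WT livers without the libraries with pancreas transcripts. Pros1 in KO livers at 90 days ranged from -0.065 to 0.098 with 1 library left out, and stood at -0.062 with upper quartile scaling and -0.0048 without the libraries low in endothelial markers. Cpb2 in WT livers at 28 days ranged from -0.33 to 0.066 with 1 library left out, above 0 without WT DEHP replicate 6 or 7. The causes were not tested. With the replicate number as a block, the members called lower were 8 in KO and 18 in WT livers at 90 days and 35 and 29 at 28 days. In WT livers at 90 days the block gave Kng1 an adjusted p of 0.0833 and C6 0.0305. In the labels libraries share only a number, there and elsewhere. At 28 days the block gave C6 an adjusted p of 0.0474 and 0.0332 in KO and WT livers. In KO livers at 90 days, where the count was 7 without the block, it gave C2 0.0247, C8b 0.0309 and C4bp 0.0645. The block could not be fitted for 90 against 28 days, since no number occurs at both times. Of 1213 values under the alternatives that keep all or named libraries, 1128 kept direction and side of the threshold, 62 no longer passed, 15 newly passed and 8 turned sign. FPKM carry no counts, so depth limits the precision of low genes such as C6 at 28 days by an amount that was not measured.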

Other observations

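Transcription factors of hepatocytes and the interleukin 6 receptor were among the genes that fell with the members at 28 days. Of 12 genes in that list, 0 fell in KO and 1 in WT livers at 90 days, and 4 in KO and 3 in WT livers at 28 days. Hnf4a, a nuclear receptor that many liver genes need, fell by 0.83 and 0.60 on the log2 scale in KO and WT livers at 28 days (limma, Benjamini-Hochberg adjusted p = 5.0e-04 and 0.0118). Hnf4a had 102, 101 and 92.0 FPKM in KO DEHP livers, against 162, 185 and 181 FPKM in KO CMC livers, and 92.7, 100.3 and 109 FPKM in WT DEHP livers, against 163, 158 and 139 FPKM in WT CMC livers. Il6ra, the receptor through which interleukin 6 induces acute phase genes, fell by 1.43 and 0.99, and Cebpa, another factor of hepatocytes, by 0.61 and 0.56. The unadjusted p was under 0.05 for 1 of the 12 in KO and 6 in WT livers at 90 days, and for 7 and 5 at 28 days. Of all 11213 genes 2000, 2232, 3555 and 3113 did so in the same order.

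Of 12 Kupffer cell markers and 12 sinusoidal endothelial markers, 0 passed in each of the 4 DEHP comparisons. At an unadjusted p under 0.05 there were 0, 0, 0 and 0 Kupffer cell markers and 0, 0, 0 and 1 endothelial markers, in KO and WT livers at 90 days and KO and WT livers at 28 days in turn. Of 11 stellate cell markers, 1 fell in KO and 0 in WT livers at 90 days, and 3 in KO and 4 in WT livers at 28 days.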
